A study of Mus musculus with 9 samples.

Results

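The cytosolic ribosomal proteins were taken as every protein-coding gene of the array whose symbol begins with Rpl or Rps, leaving out the Rps6k kinases and pseudogenes. The rule found 85 genes, measured by 173 of the 55681 probes that are not controls, among 20018 genes that could be named. They comprised 52 proteins of the large subunit, 31 of the small subunit and 2 genes that encode no subunit, Rps19bp1, which binds Rps19, and Rps23rg1, a retrogene of Rps23. Every one of the 85 genes was among the 14506 tested; Rps23, Rpl32l, Rpl37rt, Rps27rt and Rps4l were not named here. The arrays held RNA of erythroblasts, the nucleated precursors of red cells, gated as subset II and sorted from marrow; the mice were C57BL/6J, wild type and, by their labels, female. The samples formed 3 groups of 3: a normal diet (ND), a low iron diet for 3 weeks from weaning (LID_W_3w) and the same diet for 7 weeks (LID_W_7w). No group carried a transgene or deletion. The samples of a group are called biological replicates in the series' design text, and the sources used here give neither the number of animals behind a sample nor how old the normal diet mice were.

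Ribosomal proteins coat the ribosomal RNA of both subunits of the ribosome, and almost every one is present once in each ribosome. Their mRNAs are among the most abundant of a growing cell and begin with a terminal oligopyrimidine (TOP) tract, a run of C and T bases through which mTOR signalling and the protein Larp1 set their translation together. Erythroblasts make large amounts of globin before they lose their ribosomes, and loss of 1 copy of certain ribosomal protein genes causes Diamond-Blackfan anemia, a failure of red cell production.

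Each level below is the log2 processed signal of the gene's probe with the highest mean of it over the arrays, and a scaled level is that value minus the log2 of the array's own 75th percentile of signal, so that a scaled level of 7 lies far above most genes of that array. The 75th percentile lay between 1499 and 1616 on the normal diet arrays, between 1677 and 1837 after 3 weeks and between 791.7 and 1087 after 7 weeks. Scaled values therefore ask how a gene stood against the rest of its array, and unscaled values ask how bright it was; changes are on the scaled values unless stated otherwise. The mean scaled level of the spike-in controls was 1.08 ± 0.62 in the normal diet samples, 1.34 ± 0.24 in those of 3 weeks and 4.97 ± 0.47 in those of 7 weeks (SD over 3 arrays each). The 75th percentile fell by less than this rise, so the controls were brighter at 7 weeks without scaling too. Unscaled levels at 7 weeks are therefore no plain measure of the amount of RNA, and the reason was not tested. Each group lay on its own slide and scan, so slide and diet cannot be told apart. The low iron diet began at weaning, so the age of the mice and the length of the diet cannot be told apart either. As the age of the normal diet mice is not known, age may also differ in the comparisons with normal diet. The Y-linked gene Eif2s3y had scaled levels of 5.12 and 4.82 in normal diet replicates 1 and 2, against -3.77 in replicate 3 and -3.98 or lower on the other 6 arrays, which goes against the label female for those 2 samples. Of 11 tested erythroblast markers none passed the test at 3 weeks (limma; 0 at an unadjusted p under 0.05), and their summed signal, in multiples of the 75th percentile, was 2054 to 2186 on normal diet, 1846 to 1978 after 3 weeks and 2617 to 4065 after 7 weeks.

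After 3 weeks of low iron diet ribosomal protein transcripts were lower than on normal diet. On the scaled values 39 of the 85 genes fell and none rose (limma, adjusted p under 0.05), where 7.88% of all genes tested fell and 3.52% rose. No gene rose at an unadjusted p under 0.05 either, and 55 were lower at that level. The median log2 fold change was -0.83 over the ribosomal protein genes and -0.17 over all genes tested, and in 74 of the 85 every 3 week sample lay below every normal diet sample, which 31.6% of all genes did. In sorted bulk samples fewer cells of a type and less RNA per cell cannot be told apart.

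The gene with the largest fall was Rps21, a small subunit protein found only in eukaryotes. Its scaled levels were 7.64, 7.77 and 7.37 on normal diet, 4.93, 4.72 and 5.63 at 3 weeks and 6.76, 8.14 and 7.86 at 7 weeks. All 3 samples of 3 weeks were below every other sample, and the log2 fold change against normal diet was -2.50 ± 0.41 (± of a change is limma's standard error, 3 arrays a group, adjusted p = 0.0121), a level 5.66-fold lower. Rpl38, a large subunit protein needed for patterning of the mouse axial skeleton, stood at 7.18, 7.42 and 6.97 on normal diet, 5.03, 4.89 and 5.31 at 3 weeks and 7.80, 8.51 and 8.23 at 7 weeks. Its groups did not overlap in any pair, and the change at 3 weeks was -2.11 ± 0.28 (adjusted p = 0.00914). Rps15a, a small subunit protein with a bacterial counterpart, stood at 7.44, 7.00 and 6.68 on normal diet, 5.20, 4.86 and 5.14 at 3 weeks and 7.87, 7.99 and 7.89 at 7 weeks. Its change was -1.98 ± 0.27 (adjusted p = 0.00926). Rps25, a protein of the small subunit head that some viral and cellular mRNAs need for initiation, stood at 7.06, 7.11 and 6.92 on normal diet, 5.05, 5.06 and 5.51 at 3 weeks and 7.76, 8.28 and 8.11 at 7 weeks. The change was -1.82 ± 0.26 (adjusted p = 0.00939). In each of these genes the 3 week samples formed a low group of their own, with sample 3 the least low in Rps21, Rpl38 and Rps25 and sample 1 in Rps15a.

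Rpl36, Rps29, Rpl22l1 and Rpl36a completed the 8 largest falls. Rpl36 changed by -1.88 ± 0.29 (adjusted p = 0.00961), and Rps29, a zinc-binding protein of the small subunit head, by -1.87 ± 0.27 (adjusted p = 0.00939). Rpl22l1, the paralogue of Rpl22, changed by -1.84 ± 0.31 (adjusted p = 0.0136), and Rpl36a, which reaches the exit site for tRNA, by -1.67 ± 0.32 (adjusted p = 0.0168). At the other end Rpl19, which forms a bridge to the small subunit, had scaled levels of 6.81, 6.60 and 6.60 on normal diet, 6.63, 6.70 and 6.61 at 3 weeks and 8.09, 8.37 and 8.16 at 7 weeks. The normal diet and 3 week samples overlapped, and the difference was -0.03 ± 0.23 (adjusted p = 0.954). Rps2, at the entry of the mRNA channel, differed by -0.07 ± 0.31 (adjusted p = 0.9). The changes at 3 weeks thus ranged widely among proteins that enter the ribosome in equal number.

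**Figure D1:**
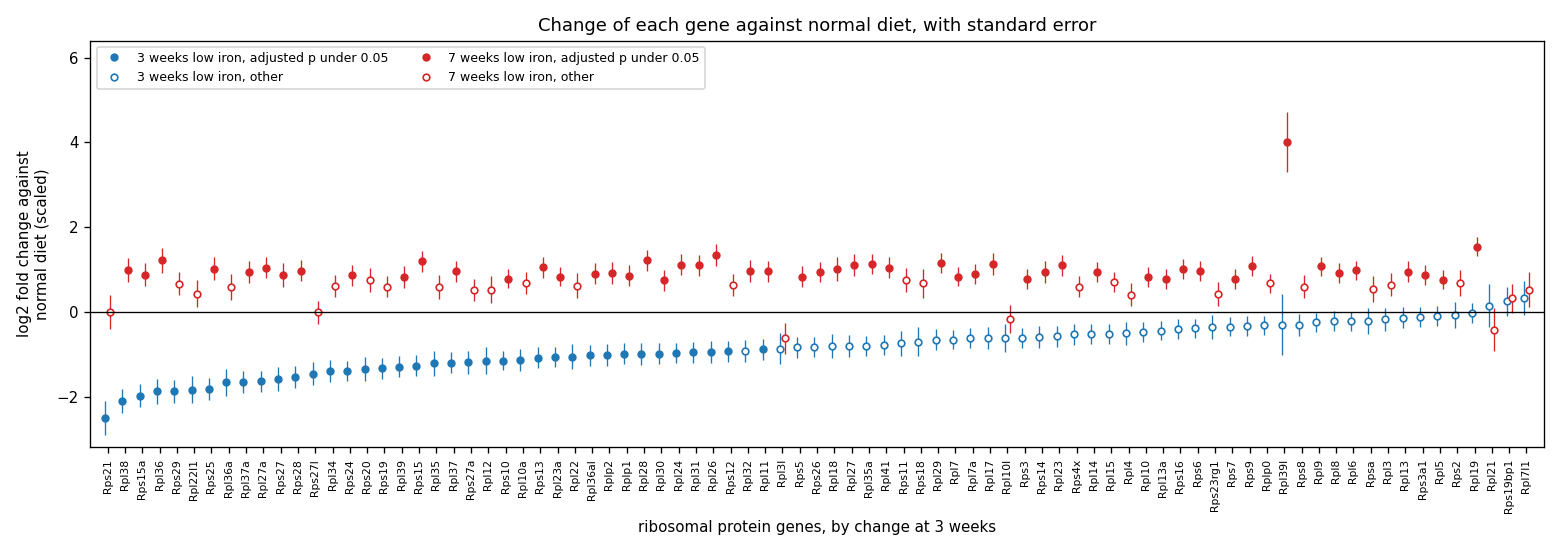
Log2 fold change against normal diet (y axis, scaled values) of 83 of the 85 ribosomal protein genes (x axis, ordered by the change at 3 weeks), with the standard error of limma as bars, 3 arrays a group; filled points passed an adjusted p of 0.05. The 3 week values (blue) run from -2.50 for Rps21 to 0.33 for Rpl7l1, while most 7 week values (red) lie near the median of 0.85.

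Without scaling 15 of the genes fell at 3 weeks, where 3.27% of all genes tested fell, and none rose, where 3.39% did (limma; none higher at an unadjusted p under 0.05); the median change was -0.67. All 15 also fell on the scaled values: Rps21, Rpl38, Rps15a, Rpl36, Rps29, Rpl22l1, Rps25, Rpl36a, Rpl37a, Rpl27a, Rps27, Rps28, Rpl34, Rps24 and Rpl39. Their unscaled changes ran from -2.34 for Rps21 to -1.13 for Rpl39. The count on the scaled values was 5 without normal diet replicate 2, 7 and 11 without 3 week replicates 2 and 1, 12 without normal diet replicate 1 or 3, and 25 without 3 week replicate 3. The unscaled count was 0 without any 1 normal diet sample or without 3 week replicate 1 or 2 (29 to 40 lower at an unadjusted p under 0.05 in limma), 10 without 3 week replicate 3 and 31 without 7 week replicate 1. With cyclic loess or quantile normalization 10 and 16 genes fell, with medians of -0.24 and -0.33. Against normal diet replicate 3 alone, the normal diet sample with low Eif2s3y, none passed (25 lower at an unadjusted p under 0.05) and the median was -0.72.

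**Figure D2:**
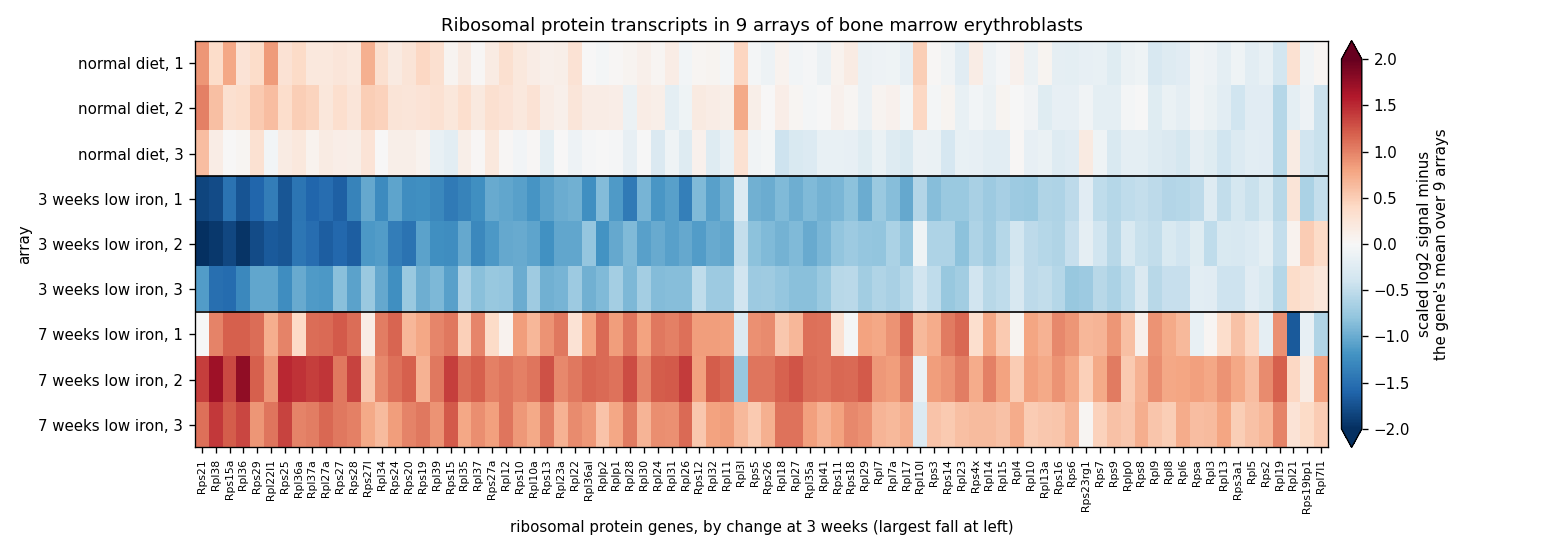
Scaled log2 level of 82 ribosomal protein genes (columns, ordered by the change at 3 weeks) on the 9 arrays (rows), as the difference from the gene's mean over the arrays; colours stop at 2 units and Rpl39l, not well above background on 5 arrays, is not drawn. The 3 week rows are blue across nearly all columns, deepest at the left, and the 7 week rows are red across most columns.

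The promoter starts of the genes with the largest and the smallest change at 3 weeks are printed here to set the sequence around the annotated start beside the change. RefSeq promoters (GRCm38.p6) were at hand for 65 of the 85 genes. Shown are 60 bases, 40 before and 20 after the annotated start, 5′ to 3′ on the gene's strand, with the longest run of C and T beginning with C in capitals, among the 20 bases either side of the start; the run of Rps25 goes on upstream of that stretch. Rps21, Rpl38, Rps15a, Rpl22l1 and Rps25 had the largest falls among genes with an entry, and Rpl19, Rps2 and Rpl5 the smallest changes among bright genes with one. The marked runs of Rps15a, Rps25, Rpl19 and Rpl5 end before the annotated start, so they lie outside the annotated mRNA and are not shown to be TOP tracts.
Rps21: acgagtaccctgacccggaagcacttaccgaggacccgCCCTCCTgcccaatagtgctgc
Rpl38: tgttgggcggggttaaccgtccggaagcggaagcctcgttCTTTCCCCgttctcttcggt
Rps15a: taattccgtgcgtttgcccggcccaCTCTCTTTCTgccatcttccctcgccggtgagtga
Rpl22l1: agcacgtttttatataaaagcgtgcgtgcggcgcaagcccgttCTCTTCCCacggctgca
Rps25: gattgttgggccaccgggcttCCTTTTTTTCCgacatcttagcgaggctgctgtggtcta
Rpl19: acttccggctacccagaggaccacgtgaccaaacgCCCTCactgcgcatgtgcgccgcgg
Rps2: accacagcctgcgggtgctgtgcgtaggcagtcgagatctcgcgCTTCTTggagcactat
Rpl5: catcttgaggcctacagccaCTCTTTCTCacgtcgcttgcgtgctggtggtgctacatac
Their positions in GRCm38.p6 were chr2:180257339-180257398 (plus strand) for Rps21, chr11:114668540-114668599 (plus strand) for Rpl38, chr7:118116128-118116187 (minus strand) for Rps15a, chr3:28805468-28805527 (plus strand) for Rpl22l1, chr9:44407674-44407733 (plus strand) for Rps25, chr11:98026670-98026729 (plus strand) for Rpl19, chr17:24720023-24720082 (plus strand) for Rps2, chr5:107900488-107900547 (plus strand) for Rpl5.

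A run of C and T of at least 8 bases that begins with C and lies within 20 bases of the start was present in 29 of the 65 genes, 44.6%, and in 12.4% of the 27025 genes of the promoter table. Among the genes with the largest falls Rps15a, Rpl38, Rpl22l1 and Rps25 held such a run, and so did Rpl5, whose level differed by -0.10 ± 0.23 at 3 weeks. The count includes runs that lie wholly upstream of the annotated start, as in Rps15a, Rps25 and Rpl5, so it is no count of TOP tracts. The run was found in 16 of 31 genes that fell at 3 weeks (51.6%) and in 13 of 34 that did not pass (38.2%). The letters CCGGAA, searched on both strands over the whole window of 250 bases before to 50 after the start and part of the site that Ets factors such as Gabpa bind, were in 49.2% of the 65 genes and in 15.2% of all genes. They were in 14 of the 31 genes that fell (45.2%) and in 18 of the 34 others (52.9%). GGGCGG, the core of Sp1 sites, was in 60.0% against 35.9%, AAGATGGC, the core of Yy1 sites, in 7.69% against 2.88%, both on both strands, and TATAAA on the gene's strand in 9.23% against 8.88%. A match describes the letters of the window and is no evidence of binding.

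After 7 weeks ribosomal protein transcripts stood higher against the rest of the array, while their unscaled signal was near that of normal diet. On the scaled values 54 of the 85 genes rose and none fell (limma; none lower at an unadjusted p under 0.05), where 10.7% of all genes tested rose and 18.8% fell. The median change was 0.85, against -0.26 over all genes tested, and in 69 genes every 7 week sample lay above every normal diet sample, as in 18.1% of all genes. Without scaling the median change was 0.05 over the ribosomal protein genes and -1.07 over all genes tested. On that scale 2 ribosomal protein genes rose, Rpl39l and Rpl19, where 3.13% of all genes did, and 2 fell, Rpl3l and Rpl10l, where 45.8% of all genes did. Rpl39l entered the test only through the 7 week samples, and Rpl3l and Rpl10l only through normal diet, so these 3 calls had the direction that the filter on dim probes set. For the same reason this holds for Rpl39l among the 54 genes above, and among those higher at 7 than at 3 weeks on both scales.

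The median unscaled level of the ribosomal protein genes was 18.35, 18.27 and 18.15 on normal diet and 18.05, 18.37 and 18.52 at 7 weeks, so these groups overlapped. That of all other genes tested was 10.86, 10.75 and 10.77 on normal diet and 9.59, 9.67 and 10.13 at 7 weeks, with no overlap. At 3 weeks the ribosomal protein genes stood at 17.27, 17.41 and 17.70, below both other groups, while the other genes stood between 10.87 and 11.17.

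**Figure D3:**
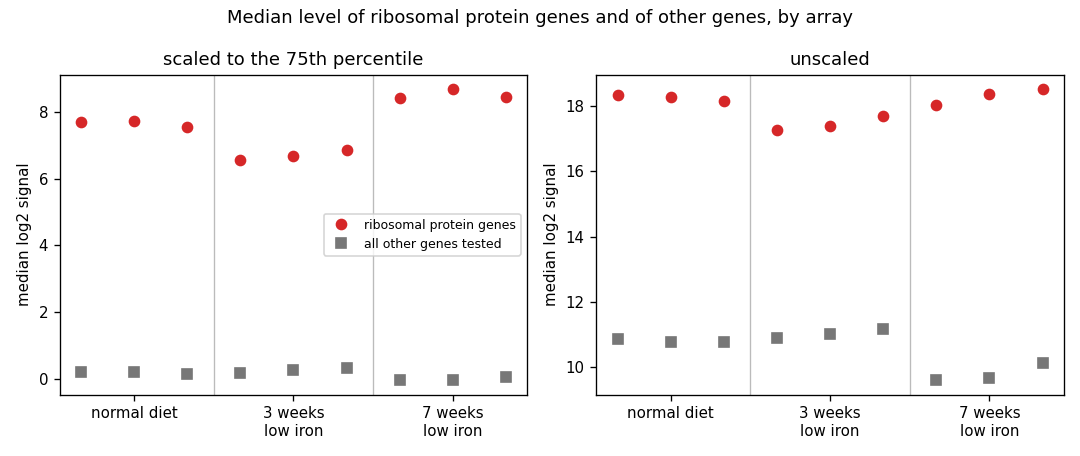
Median log2 signal (y axis) of the 85 ribosomal protein genes (red circles) and of all other genes tested (grey squares) on each of the 9 arrays (x axis, by group), scaled to the 75th percentile at the left and unscaled at the right. Unscaled, the ribosomal protein median of the 7 week arrays lies at the height of normal diet while that of the other genes lies lower by about a log2 unit.

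The largest rise among bright genes was in Rpl19, whose scaled change at 7 weeks was 1.54 ± 0.23 (adjusted p = 0.0035) and whose unscaled change was 0.74 (adjusted p = 0.0455). Its 7 week samples were the only ones above 7, from the levels given above. Rpl26, a large subunit protein known to bind p53 mRNA, stood at 6.98, 6.95 and 6.78 on normal diet, 5.68, 6.01 and 6.18 at 3 weeks and 8.14, 8.43 and 8.17 at 7 weeks. It rose by 1.34 ± 0.25 (adjusted p = 0.00676). Every 7 week sample of Rpl26 lay above every other sample. Rpl36, Rpl28, Rps15, a small subunit protein near the decoding site, and Rpl29 rose by 1.21 ± 0.29, 1.21 ± 0.26, 1.20 ± 0.25 and 1.15 ± 0.24 (adjusted p = 0.0151, 0.0102, 0.00993 and 0.0102). Rps21, with the largest fall at 3 weeks, differed from normal diet by -0.01 ± 0.41 at 7 weeks (adjusted p = 0.989).

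The scaled count at 7 weeks was 12 without normal diet replicate 3, 13 without normal diet replicate 1, 30 without 7 week replicate 2 and 34 without normal diet replicate 2; it was 27 when only the 2 groups compared were fitted. With quantile normalization 5 genes rose and the median was 0.13, and against normal diet replicate 3 alone none passed (38 higher at an unadjusted p under 0.05), with a median of 0.95.

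Nearly all ribosomal protein genes were higher at 7 than at 3 weeks of the diet, a comparison in which age and length of diet cannot be told apart. On the scaled values 77 of the 85 were higher at 7 weeks and none lower, where 17.6% of all genes tested were higher and 19.6% lower. The median difference was 1.73, against -0.13 over all genes. In 80 genes the groups did not overlap, which 23.2% of all genes showed in that direction. Without scaling 42 were higher, where 5.69% of all genes were, and 1, Rpl21, was lower, where 46.9% of all genes were; the median was 0.76 against -1.09. Rpl38 rose by 3.11 ± 0.28 and Rpl36 by 3.09 ± 0.29 on the scaled values (adjusted p = 0.000389 for both), and by 2.14 and 2.13 without scaling (adjusted p = 0.000987 and 0.000936). Rps15a, Rps25, Rpl27a, Rpl37a, a zinc-ribbon protein, and Rps29 rose by 2.85 ± 0.27, 2.84 ± 0.26, 2.68 ± 0.25, 2.59 ± 0.26 and 2.54 ± 0.27 on the scaled values. Rpl21 had scaled levels of 1.40, 0.91 and 1.26 on normal diet, 1.36, 1.17 and 1.47 at 3 weeks and -0.59, 1.52 and 1.38 at 7 weeks. Its unscaled levels were 12.07, 11.92 and 12.31 at 3 weeks and 9.04, 11.21 and 11.46 at 7 weeks, without overlap and with 7 week sample 1 the lowest; its probe was dim, at 0.343% of saturation. The 8 genes that did not pass on the scaled values were Rpl3l, Rpl7l1, Rpl10l, Rpl21, Rps2, Rpsa, Rps19bp1 and Rps23rg1. With quantile normalization 30 genes rose, with a median of 0.49; the unscaled count was 25 and 26 without 3 week replicates 1 and 2.

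The comparisons with normal diet share its samples, and their calls divided the genes as follows. On the scaled values 24 genes fell at 3 weeks and rose at 7 weeks (1.05% of all genes tested did), and 30 rose at 7 weeks without falling at 3 (9.7% of all genes). A further 15 fell at 3 weeks without rising at 7 (6.83%), and 16 passed in neither (63.6%). The 15 that fell at 3 weeks only included Rps21, Rpl22l1, Rpl36a, Rps19 and Rps27l.

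Ribosomal protein genes were among the brightest genes of these arrays. Brightness is given as the raw spot signal in percent of the scanner's saturation value, as the geometric mean over the 9 arrays. Of the 393 genes at 20% or more, 70 were ribosomal protein genes (17.8%), and of the 97 at 40% or more, 21 were (21.6%). By the probes used, Rpl23, a large subunit protein at the interface between the subunits, was the brightest of the ribosomal protein genes at 56.2%, and Rpl3l the dimmest at 0.0159%. Among the 49 ribosomal protein genes between 20% and 40%, the median scaled change was -0.97 at 3 weeks and 0.88 at 7 weeks, against -0.58 and 0.15 in the 247 other genes of that class. Among the 21 at 40% or more it was -0.40 and 0.85, against -0.34 and 0.76 in 76 other genes. In the 8 between 5% and 20% it was -1.65 and 0.73, against -0.55 and -0.35 in 1172 other genes. All 8 fell at 3 weeks, as did 16.2% of those other genes. Of the 6 under 1%, Rpl3l, Rpl10l and Rpl39l among them, none fell at 3 weeks. Their medians were -0.34 and 0.12, against -0.05 and -0.22 in 10370 other genes. The 1 gene between 1% and 5%, Rps19bp1, differed by 0.24 and 0.32. The brightest class thus had scaled medians close to those of other genes of its brightness, and the classes from 5% to 40% lay farther from theirs. No spot was flagged saturated, and the part of brightness in these changes was not tested. Among erythroblast markers Alas2, the first enzyme of heme synthesis, Slc4a1, the anion exchanger of the red cell membrane, and the globins Hba-a1 and Hbb-bt had scaled changes of 0.84 ± 0.26, 0.93 ± 0.26, 0.76 ± 0.26 and 0.85 ± 0.25 at 7 weeks. All but Hba-a1 passed the test.

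**Figure D4:**
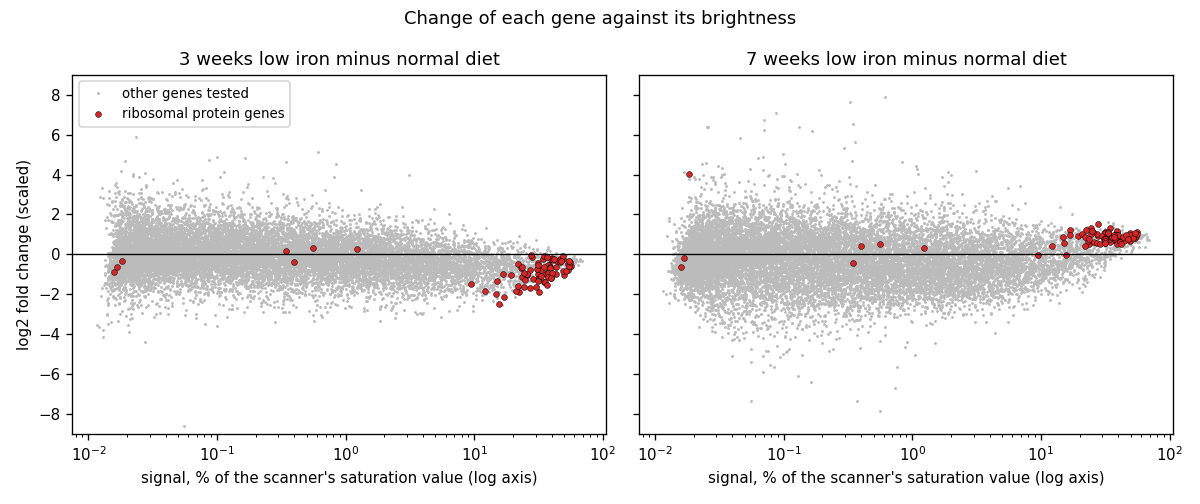
Scaled log2 fold change (y axis) of each of the 14506 genes tested against its raw signal in percent of the scanner's saturation value (x axis, log scale), for 3 weeks (left) and 7 weeks (right) against normal diet; red points are ribosomal protein genes and grey points other genes. Most red points lie at 9% or more of saturation, below 0 at 3 weeks and above 0 at 7 weeks, and at 7 weeks the grey points of the brightest end lie above 0 too.

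Where a gene had several probes, brightness and change could be set side by side within the gene. A single probe was tested for 33 genes and 2 or more for 52, up to 7. In 19 ribosomal protein genes 1 probe lay at 20% or more and another below 5%. At 7 weeks the brighter probes had a median change of 0.95 and the dimmer ones of 0.06, with the brighter above the dimmer in 17 of 19 genes. In 74 other genes with such a pair the medians were 0.23 and -0.70, with the brighter above in 60. At 3 weeks the medians were -0.61 and -0.58 in the ribosomal protein genes, with the brighter above in 7 of 19, and -0.57 and 0.04 in the others, with the brighter above in 12 of 74.

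Probes of 1 gene went against each other past the threshold in few cases. At 3 weeks 2 probes of Rps15a at 14.8% and 14.6% of saturation fell, with changes of -1.98 and -2.15, while its dim probe at 0.0742% rose by 2.01 (adjusted p = 0.0158 over all probes). Rpl23 and Rpl7a also had probes of both signs at 3 weeks with 1 past the threshold. At 7 against 3 weeks the bright probe of Rpl22 rose by 1.67 and its probe at 0.777% fell by 1.48. At 7 weeks against normal diet 9 genes had probes of both signs with 1 past the threshold, among them Rpl14, Rpl15, Rpl22, Rpl27a and Rpl31. At 7 against 3 weeks there were 8, among them Rpl13a, Rpl22, Rpl23, Rps6 and Rpsa. Over all 171 tested probes 79 fell and 1 rose at 3 weeks, where 9.77% of all probes fell and 3.42% rose, and 105 rose and 1 fell at 7 weeks, where 13.5% rose and 16.8% fell. At 7 against 3 weeks 146 were higher and 2 lower, where 21.9% and 17.7% of all probes were.

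Both subunits are described side by side, without a test. At 3 weeks 23 of 52 large subunit genes and 16 of 31 small subunit genes fell on the scaled values, with medians of -0.80 and -0.94. At 7 weeks 37 of 52 and 17 of 31 rose, with medians of 0.91 and 0.77. Of all genes tested 7.88% fell at 3 weeks and 10.7% rose at 7 weeks. Without scaling the medians of the large and small subunit genes were -0.64 and -0.78 at 3 weeks and 0.10 and -0.03 at 7 weeks. The 3 week changes ran from -2.11 to 0.33 in the large and from -2.50 to -0.07 in the small subunit.

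Proteins with a shared site on the ribosome were described as groups. The P stalk of Rplp0, Rplp1 and Rplp2 recruits elongation factors. Rplp1 had scaled levels of 8.17, 8.29 and 8.13 on normal diet, 7.02, 7.13 and 7.48 at 3 weeks and 8.98, 9.24 and 8.93 at 7 weeks, and the groups did not overlap. It fell by 0.99 ± 0.25 at 3 weeks (adjusted p = 0.035) and rose by 0.85 ± 0.25 at 7 weeks (adjusted p = 0.0313). Rplp2 fell by 1.01 ± 0.26 (adjusted p = 0.0407) and rose by 0.91 ± 0.26 (adjusted p = 0.0317), while Rplp0, the base of the stalk, differed by -0.32 ± 0.22 (adjusted p = 0.373) and 0.67 ± 0.22 (adjusted p = 0.0501). A further probe of Rplp0, with a higher raw signal at 56.4% of saturation, rose by 0.90 ± 0.23 at 7 weeks (adjusted p = 0.0208 when it stood for the gene). In the 5S particle, whose 2 proteins bind Mdm2 when ribosome assembly is disturbed, Rpl11 fell by 0.89 ± 0.24 at 3 weeks (adjusted p = 0.0475) and Rpl5 did not pass (-0.10 ± 0.23, adjusted p = 0.804). Rpl5 stood at 7.67, 7.65 and 7.68 on normal diet, 7.44, 7.61 and 7.66 at 3 weeks and 8.30, 8.51 and 8.47 at 7 weeks, so its normal diet and 3 week samples overlapped. Both rose at 7 weeks, Rpl11 by 0.96 ± 0.24 and Rpl5 by 0.76 ± 0.23 (adjusted p = 0.0198 and 0.0354).

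Of the 6 proteins at the rim of the exit tunnel (Rpl19, Rpl23a, Rpl26, Rpl31, Rpl35 and Rpl39) 5 fell at 3 weeks, all but Rpl19, and 5 rose at 7 weeks, with medians of -1.01 and 0.96. Without scaling 1 of the 6 fell at 3 weeks and 1 rose at 7 weeks. Of the 85 genes 45.9% fell at 3 weeks and 63.5% rose at 7 weeks on the scaled values, and of all genes tested 7.88% and 10.7%. Of the 4 small subunit proteins along the mRNA path (Rps2, Rps3, Rps26 and Rps28) 1 fell at 3 weeks, Rps28 with a change of -1.54 ± 0.25 (adjusted p = 0.0124), and 3 rose at 7 weeks. Fau and Rack1 are ribosomal proteins that carry other symbols, and so stood outside the rule; their changes lay within the range of the 85. Fau, made as a fusion with a ubiquitin-like protein, changed by -1.34 ± 0.26 at 3 weeks (adjusted p = 0.0178), and Rack1, a scaffold on the small subunit, by -0.28 ± 0.23 (adjusted p = 0.437); both rose at 7 weeks.

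Of the 22 genes mutated in Diamond-Blackfan anemia, 13 fell at 3 weeks, 16 rose at 7 weeks and all 22 were higher at 7 than at 3 weeks on the scaled values. Their medians were -0.95, 0.88 and 1.91, against -0.83, 0.85 and 1.73 over all 85 genes. Of the 85 genes 45.9% fell at 3 weeks, 63.5% rose at 7 weeks and 90.6% were higher at 7 than at 3 weeks. Of all genes tested 7.88%, 10.7% and 17.6% did. Without scaling 5 of the 22 fell at 3 weeks and 14 were higher at 7 than at 3 weeks, and their median change at 7 weeks was 0.07. On that scale 17.6% and 49.4% of the 85 genes did so, and 3.27% and 5.69% of all genes tested. Rps19, the gene most often mutated in the disease, had scaled levels of 6.67, 6.53 and 6.33 on normal diet, 5.04, 5.19 and 5.29 at 3 weeks and 7.04, 6.95 and 7.31 at 7 weeks. The 3 week samples were below all others, and it fell by 1.34 ± 0.24 at 3 weeks (adjusted p = 0.0155) and did not pass at 7 weeks (0.59 ± 0.24, adjusted p = 0.0945). The largest falls of the list were those of Rps15a and Rps29, given above, and of Rps27, at -1.58 ± 0.28 (adjusted p = 0.0147), and the largest rise at 7 weeks was that of Rpl26.

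Several ribosomal proteins have a paralogue encoded by a separate gene. Comparing paralogue and core gene within an array does not depend on the scaling, and 4 of the 8 pairs listed could be tested, by an exact permutation of the group labels over the 9 arrays (1680 arrangements, smallest possible p = 0.00357, two-sided in effect through the F statistic). The F statistic compares the 3 groups at once, so each p covers all 3 groups and not the single change printed beside it. The difference of Rpl22l1 from Rpl22 changed by -0.78 from normal diet to 3 weeks, with no overlap between those groups (exact permutation p = 0.0286, adjusted p = 0.0571 over the 4 pairs). Rpl22 binds RNA in lymphocyte development and represses its paralogue. Its scaled levels were 7.66, 7.60 and 7.26 on normal diet, 6.39, 6.32 and 6.63 at 3 weeks and 7.64, 8.41 and 8.31 at 7 weeks. Those of Rpl22l1 were 7.25, 7.01 and 6.35 on normal diet, 5.02, 4.72 and 5.37 at 3 weeks and 7.13, 7.29 and 7.47 at 7 weeks. Both genes fell at 3 weeks. The difference of Rps27l, known as a p53 target, from Rps27 changed by 0.12 at 3 weeks and by -0.89 at 7 weeks, where the groups did not overlap (exact permutation p = 0.025, adjusted p = 0.0571). Rps27 rose at 7 weeks by 0.88 ± 0.28 (adjusted p = 0.0447) while Rps27l stood at -0.01 ± 0.27 (adjusted p = 0.982). The difference of Rpl7l1 from Rpl7 was higher at 3 weeks by 0.98, without overlap (exact permutation p = 0.0429, adjusted p = 0.0571), and that of Rpl36al from Rpl36a by 0.64 (exact permutation p = 0.0821, adjusted p = 0.0821). On normal diet the mean difference of Rpl7l1 from Rpl7 was -6.48, so their probes lay far apart in brightness. In the 74 other genes with a bright and a dim probe, the median changes at 3 weeks were -0.57 and 0.04. The part of brightness in the paralogue changes was not tested. No pair passed 0.05 after adjustment; 3 of the 4, all but Rpl36al, passed when a gene's probes were averaged (adjusted p = 0.0143 to 0.0333), with normexp background correction (0.0286 to 0.0476) or without 7 week replicate 2 (0.0476).

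**Figure D5:**
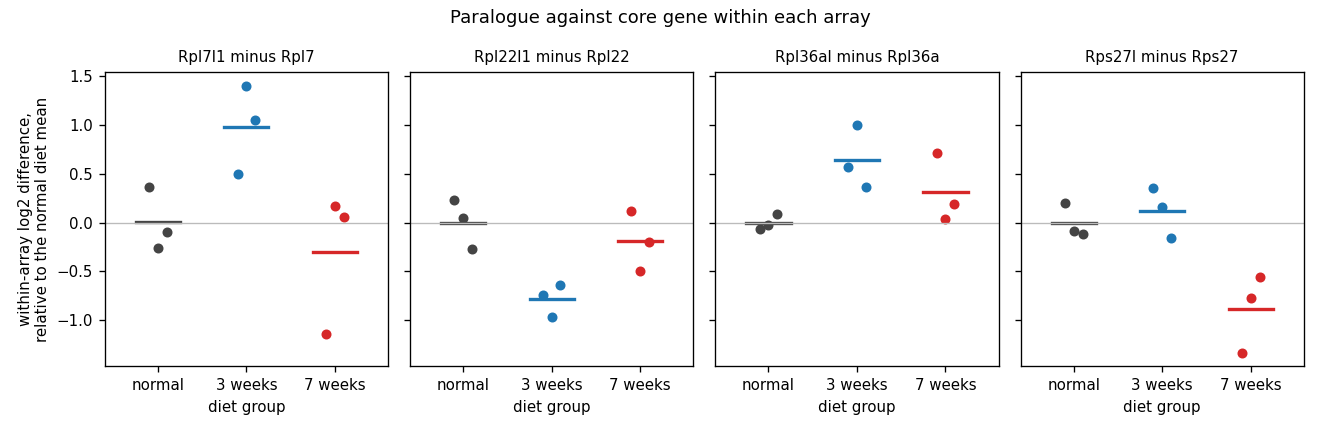
Log2 difference between paralogue and core gene within each array (y axis), relative to the mean of normal diet, in the 3 diet groups (x axis) for the 4 pairs tested; points are arrays and bars group means of 3 arrays. Rpl22l1 minus Rpl22 is lower in all 3 samples of 3 weeks, and Rps27l minus Rps27 in all 3 samples of 7 weeks.

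Rpl39l, a paralogue of the tunnel protein Rpl39 that is known from testis, was well above background on 1 of 3 normal diet arrays, on none at 3 weeks and on all 3 at 7 weeks. Its scaled levels were -7.06, -6.29 and -3.98 on normal diet, -6.14, -5.46 and -6.66 at 3 weeks and -2.38, -1.46 and -1.47 at 7 weeks. The 7 week samples were above all others, although normal diet sample 3 stood apart from its group. The 7 week level was at least 13-fold higher than at 3 weeks (fitted log2 fold change 4.32 ± 0.72). For that bound each 3 week array was set to the dimmest signal that any probe had well above background, or to this probe's own where larger. Rpl39l entered the test only through the 7 week samples, so the filter set the direction and no p is given. Against normal diet, where 1 array measured it, the fitted difference was 4.01 ± 0.72, given as a description. Rpl3l, known from muscle, and Rpl10l, known from testis, were well above background on all 3 normal diet arrays, on 1 and 2 of the 3 week arrays and on none at 7 weeks, near the limit throughout, and no fold is given. Their core genes Rpl3 and Rpl10 changed at 7 weeks by 0.64 ± 0.27 (adjusted p = 0.101) and 0.82 ± 0.23 (adjusted p = 0.0292).

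Rpl10, Rpl36a, Rpl39 and Rps4x lie on the X chromosome. Of these Rpl36a and Rpl39 fell at 3 weeks, and Rpl10 and Rpl39 rose at 7 weeks. Rpl39 had scaled levels of 7.84, 7.82 and 7.38 on normal diet, 6.24, 6.30 and 6.63 at 3 weeks and 8.50, 8.58 and 8.43 at 7 weeks. Rps4x had scaled levels of 7.81, 7.61 and 7.51 on normal diet, 7.03, 7.06 and 7.28 at 3 weeks and 8.0, 8.42 and 8.30 at 7 weeks. In both, normal diet replicate 3 was the lowest of its group. Normal diet replicate 3 minus the mean of replicates 1 and 2 had a median of -0.22 over the 4 genes, with a range from -0.45 to -0.07, and of -0.14 over the 81 others. The X-linked values lay within the range of the others, -0.78 to 2.69.

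Other genes of the pathway, from lists set beside the ribosomal proteins, are given by their counts. Of 15 other mRNAs with a TOP tract, 1 fell and 1 rose at 3 weeks and 1 rose and 1 fell at 7 weeks, with medians of -0.22 and 0.12. Of all genes tested 7.88% fell and 3.52% rose at 3 weeks, and 18.8% fell and 10.7% rose at 7 weeks, which is the background of the counts here. Those that passed at 3 weeks were Eif3k (-1.45 ± 0.28, adjusted p = 0.0183) and the splicing factor Hnrnpa1 (1.84 ± 0.35, adjusted p = 0.0178). At 7 weeks Eef1b2, an exchange factor of elongation, rose by 0.92 ± 0.25 (adjusted p = 0.0254) and Eif3e fell, with a change of -1.90 ± 0.37 (adjusted p = 0.00793). Of 14 regulators of ribosomal protein transcription or translation 2 rose and 3 fell at 3 weeks. The kinase Mtor rose by 1.60 ± 0.27 (adjusted p = 0.0137) and the transcription factor Myc by 1.45 ± 0.38 (adjusted p = 0.0417), while the changes were -3.17 ± 0.34 for Eif4ebp2, a repressor of cap-dependent translation, -1.84 ± 0.33 for Max, the partner of Myc, and -1.56 ± 0.30 for Gabpb1, the partner of Gabpa (adjusted p = 0.00794, 0.0147 and 0.0178). At 7 weeks Rptor, a subunit of the mTOR complex, rose by 1.19 ± 0.26 (adjusted p = 0.012), and 5 fell: Rps6kb1, Yy1, Eif4ebp2, Max and Gabpb1. Of 11 chaperones and assembly factors 1 rose at 3 weeks, Nob1, the nuclease that finishes the small subunit RNA, by 1.50 ± 0.39 (adjusted p = 0.0414), and 1 fell, the Rpl3 chaperone Grwd1, with a change of -1.42 ± 0.39 (adjusted p = 0.0482). At 7 weeks Grwd1 rose by 1.19 ± 0.39 and Nob1 fell, with a change of -1.30 ± 0.39 (adjusted p = 0.0485 and 0.0364). Rps19bp1 and Rps23rg1, which are no subunits, differed by 0.24 ± 0.34 and -0.36 ± 0.28 at 3 weeks and passed in no comparison.

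Markers of other marrow cells were measured on the same arrays. Their counts stand beside the shares of all genes tested, of which 3.52% rose and 7.88% fell at 3 weeks. At 7 weeks 10.7% of all genes rose and 18.8% fell. Of 10 monocyte and macrophage markers 4 rose at 3 weeks and 4 fell at 7 weeks, and their summed scaled signal, in multiples of the 75th percentile, was 40.7 to 60.7 on normal diet, 72.5 to 100.1 after 3 weeks and 23.5 to 30.2 after 7 weeks. Of 12 neutrophil markers 2 rose at 3 weeks and 1 at 7 weeks, with sums of 226.3 to 651.5, 299.1 to 517.2 and 378.3 to 594.7. Of 7 B lineage markers 2 rose at 3 weeks (sums 4.33 to 7.06, 9.27 to 22.5 and 3.49 to 9.90), and at 7 weeks 1 rose and 1 fell. Of 7 T and NK cell markers none passed at 3 weeks (limma; 0 at an unadjusted p under 0.05) and 1 rose at 7 weeks, and of 5 megakaryocyte markers none passed at 3 weeks (1 at an unadjusted p under 0.05) and 1 fell at 7 weeks. Of 5 mast cell, basophil and eosinophil markers 2 fell at 7 weeks, with sums of 13.3 to 23.7, 0.565 to 24.4 and 0.519 to 0.661. The 85 ribosomal protein genes summed to 14719 to 16691 on normal diet, 8624 to 9862 after 3 weeks and 27148 to 32360 after 7 weeks. The part of other cells in the ribosomal protein changes was not tested.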

How the data were processed

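RNA of 9 sorted erythroblast samples was hybridised to 1-colour arrays, and the deposited scanner files hold background-subtracted, processed intensity values from Feature Extraction 10.7.3.1, per the file headers. The authors also deposited a series table of log2 values centred on each probe's median, whose normalization between arrays is not given in the sources used here; it served as an alternative. Control and outlier spots were left out, log2 intensity was reduced by the log2 of the array's 75th percentile, and spots of a probe were averaged. A probe was tested if well above background on all 3 arrays of a group, and a gene took the probe with the highest mean processed signal over the arrays. One limma 3.58.1 fit (R 4.3.3) covered all 9 arrays, and p-values were adjusted by Benjamini-Hochberg over all genes, with a threshold of 0.05; a second fit left out the scaling. Gene names came from RefSeq (GRCm38.p6) through each probe's accession, for 26413 of 55681 probes. The fits were tested on simulated data.

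Named with values are the 8 largest changes per comparison, the paralogue pairs, the P stalk, the 5S particle, X-linked genes, genes whose probes differ in sign with 1 past the threshold, the brightest and dimmest gene and the genes that are no subunit; Rps19 and the genes of smallest change, Rps2 among them, were named after their values were seen. Some genes under this rule are not reported here by name; they stay in the fits and the counts. The members and lists were chosen with earlier results of these data known. The mean spot signal planned for the normexp alternative was not used here, and the median spot signal took its place. Other alternatives were other normalizations, filters and probe rules, array weights, the replicate block, and leaving out samples. The number of arrays, 3 a group, limits the precision.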

Additional observations from a re-analysis of the deposited data

Results flagged for a closer look

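The change against normal diet differed between 3 and 7 weeks in 77 of the 85 ribosomal protein genes, each higher at 7 weeks (limma, scaled values, adjusted p under 0.05). The spike-in controls had a mean scaled level of 4.97 at 7 weeks, above the 1.08 of normal diet, although they are no measure of the samples' own RNA.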

How the results depend on the processing

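All values below are for the ribosomal protein genes. With scaled medians of -0.83, 0.85 and 1.73 (3 weeks and 7 weeks against normal diet, 7 against 3 weeks), quantile normalization gave -0.33, 0.13 and 0.49, no scaling gave -0.67, 0.050 and 0.76, cyclic loess gave -0.24 at 3 weeks and 1.03 for 7 against 3 weeks, the percentile over probes detected on all arrays gave -0.58 and 1.17 against normal diet, and scaling to the median of the other genes, chosen after seeing the data, gave 1.04 at 7 weeks and 1.98 for 7 against 3 weeks. The median of the other genes shifted by -0.17 and -0.27 on the scaled values and by -0.01 and -1.08 without scaling. The 39 genes lower at 3 weeks became 16 with quantile normalization, 10 with cyclic loess, 18 with the percentile over detected probes, 15 without scaling and 0 against normal diet replicate 3 alone (25 at an unadjusted p under 0.05 in limma). The 54 higher at 7 weeks became 5 with quantile normalization, 2 without scaling (and 2 lower), 27 with only the 2 groups compared and 0 against normal diet replicate 3 alone (38 at an unadjusted p under 0.05 in limma). The 77 higher at 7 than at 3 weeks became 30 with quantile normalization and 42 without scaling (and 1 lower). From the authors' deposited log2 values, 34 were lower at 3 weeks, 52 higher at 7 weeks and 76 higher at 7 than at 3 weeks.

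On unscaled values the 15 lower at 3 weeks became 45 with array weights, 27 with normexp, 41 with only the 2 groups compared and 0 against normal diet replicate 3 alone (12 at an unadjusted p under 0.05 in limma). The 2 higher at 7 weeks became 1 with no filter on dim probes, with probes detected on all arrays or with only the 2 groups compared, and 0 with array weights or normal diet replicate 3 alone. The 2 lower there became 4 with the mean over probes, 1 with array weights and 0 with probes detected on all arrays, with only the 2 groups compared or with normal diet replicate 3 alone. Of 7 against 3 weeks the 42 higher became 26 with only the 2 groups compared, and the 1 lower became 2 with the mean over probes and 0 with no filter, normexp, array weights or only the 2 groups compared.

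Leaving out 1 sample at a time gave 5 to 49 lower at 3 weeks, 12 to 66 higher and 0 to 1 lower at 7 weeks and 73 to 79 higher at 7 than at 3 weeks, with medians from -0.90 to -0.76, 0.79 to 0.91 and 1.63 to 1.84. Unscaled, it gave 0 to 31 lower at 3 weeks (0 without any normal diet sample or without 3 week replicate 1 or 2), 1 to 2 higher and 0 to 3 lower at 7 weeks, and 25 to 51 higher and 0 to 3 lower for 7 against 3 weeks, with medians from -0.75 to -0.61, -0.03 to 0.15 and 0.65 to 0.91. The paralogue differences at 3 weeks ranged from 0.77 to 1.22 for Rpl7l1, -0.92 to -0.67 for Rpl22l1, 0.47 to 0.78 for Rpl36al and 0.0017 to 0.26 for Rps27l. With the mean over probes they were 1.12, -1.26 and 0.21 for Rpl7l1, Rpl22l1 and Rps27l, and with normexp 1.09, -0.85 and 0.23. In both settings these 3 pairs passed the permutation test, which takes the 3 groups together and does not test the 3 week difference alone.

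Same-numbered samples did not pair: their deviations correlated from -0.17 to 0.29. With the replicate block 28 genes were lower at 3 weeks, 43 higher at 7 weeks and 76 higher at 7 than at 3 weeks on the scaled values; unscaled, the block gave 12 lower at 3 weeks, 1 higher and 2 lower at 7 weeks, and 41 higher and 0 lower for 7 against 3 weeks. Single genes changed sign in 8 cases: with quantile normalization Rpl10 at 7 weeks (-0.018) and, for 7 against 3 weeks, Rplp0 (-0.19), Rpl5 (-0.35), Rpl3 (-0.38) and Rps4x (-0.17); without scaling Rpl5 at 7 weeks (-0.049) and for 7 against 3 weeks (-0.11) and Rpl3 for 7 against 3 weeks (-0.15). With the probe of highest raw signal, chosen after seeing the data and different in 6 genes, 38 were lower at 3 weeks and 57 higher at 7 weeks; Rps12 no longer passed at 3 weeks, and Rplp0, Rps12 and Rps29 passed at 7 weeks (0.90, 1.18 and 1.03). With that probe the difference of Rps27l from Rps27 at 3 weeks was -0.049. The cause was not tested.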
